A study of Rattus norvegicus with 8 samples.

Results

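The genes described here are those of the kidney's water channels and of the sodium channel of the collecting duct, with the receptors and the enzyme that act on them. They are Aqp1, Aqp2, Aqp3, Aqp4, Avpr2, Scnn1a, Scnn1b, Scnn1g, Hsd11b2 and Nr3c2, chosen by name. Each had 1 probe set on the Clariom S rat array, and all 10 of the 10 passed the filter on low values, out of 15037 genes with a symbol. Kidneys came from male rats of the Sprague-Dawley strain at 10 weeks of age. RNA from their cortex and outer medulla was hybridised to 1 array for each of 2 zones and 4 treatments, 8 arrays together. Rats were untreated controls, or received ethylene glycol and alfacalcidol over 2 weeks (EG, a model of calcium oxalate stones), phlorizin, or EG with phlorizin. Phlorizin inhibits the sodium-glucose cotransporters, and the study asked how that inhibition bears on stones. All rats had free access to pelleted diet and water, per the labels. The dose and route of phlorizin, the number of rats behind an array and whether RNA was pooled are not given in the sources used here. Both zones of a treatment can come from the same rats. A difference between 2 arrays of a zone therefore has no replicate and carries no p-value.

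Water is reabsorbed in the proximal tubule and the descending thin limb through aquaporin 1, which is always in the membrane. The collecting duct takes up water only when vasopressin binds its receptor on principal cells, raises cAMP and brings aquaporin 2 to the apical membrane, while aquaporins 3 and 4 let the water out at the basolateral side. The same principal cells take up sodium through ENaC, a channel built of an alpha, a beta and a gamma subunit, under the control of aldosterone and its nuclear receptor. An enzyme in these cells inactivates glucocorticoids and so keeps that receptor for aldosterone.

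Promoters of 3 genes are shown because Aqp2 and Aqp3, which work on opposite faces of the same cell, went unequally with EG, a choice made after their values were seen, and because Scnn1g is the sodium channel gene whose table entry begins at the start of the gene. They are the 250 bases before the start site, 5′ to 3′ on the strand of the gene, from RefSeq's GRCr8 build. Aqp2 lies at chr7:132590036-132590285 on the plus strand, Aqp3 at chr5:61040684-61040933 on the minus strand and Scnn1g at chr1:185735975-185736224 on the plus strand. Capitals mark matches on either strand to TGACG, the core of the cAMP response element, GATAA, the core bound by GATA factors, TGTTCT, part of the site of corticosteroid receptors, and TATAAA, the TATA box.
Aqp2: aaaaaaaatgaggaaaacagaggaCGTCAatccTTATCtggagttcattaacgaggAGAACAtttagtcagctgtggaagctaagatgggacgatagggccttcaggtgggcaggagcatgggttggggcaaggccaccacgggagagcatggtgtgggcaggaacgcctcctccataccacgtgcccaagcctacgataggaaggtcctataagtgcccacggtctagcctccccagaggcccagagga
Aqp3: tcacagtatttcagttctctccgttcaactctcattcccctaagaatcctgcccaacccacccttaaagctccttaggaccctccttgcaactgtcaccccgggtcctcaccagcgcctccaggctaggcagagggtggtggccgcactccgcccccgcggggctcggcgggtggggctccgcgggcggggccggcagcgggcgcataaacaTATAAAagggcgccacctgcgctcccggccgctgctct
Scnn1g: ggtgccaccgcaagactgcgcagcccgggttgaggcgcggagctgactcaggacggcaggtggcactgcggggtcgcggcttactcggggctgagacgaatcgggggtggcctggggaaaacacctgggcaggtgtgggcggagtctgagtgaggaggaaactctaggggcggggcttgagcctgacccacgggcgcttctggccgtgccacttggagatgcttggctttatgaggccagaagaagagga
The Aqp2 window held 1 match each to the first 3 motifs, all on the minus strand, beginning 226, 217 and 194 bases before the start. The Aqp3 window held TATAAA alone, 38 bases before the start, and the Scnn1g window held none. Of all 33469 promoter windows of this length, 18.2% held TGACG, 23.5% GATAA, 17.5% TGTTCT and 12.9% TATAAA, so each match is common. No matches overlapped. A match is a description of the letters and not a bound site. Promoters of 7 of the 10 genes were in the table, and Scnn1a, Hsd11b2 and Nr3c2 were not among them. On the chromosome, Aqp2 is followed by Aqp5 and then Aqp6, Aqp3 lies next to Aqp7, and Scnn1g next to Scnn1b, in the gene order of GRCr8.

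Values are log2 expression. The 23 background probes averaged 5.53 to 5.68 per array, and the brightest of them reached 7.64 to 7.98. All genes but Avpr2 and Aqp4 were above the brightest background probe on all 8 arrays. Avpr2 was below it on all 4 cortex arrays, and Aqp4 on the control cortex array. In the outer medulla, between 31 and 61 of 23176 probe sets were brighter than Aqp2, and whether its signal was near the upper limit of the arrays was not tested. The cortex EG array had lower poly-A spike-in controls (mean 6.42, against 7.46 to 8.23 on the others) and hybridisation controls (10.4, against 10.6 to 11.3). Markers were used to check the zone labels. In the zone fit given below, 32.7% of all tested probe sets rose in the outer medulla and 18.8% fell. All 12 tested markers of the early proximal tubule fell in the outer medulla. Those of the thin limb (5 of 5) and of the thick ascending limb (6 of 8) rose there. Of 5 tested markers of the last part of the proximal tubule (S3), 3 fell in the outer medulla and 1 rose (median -2.81). Slc5a2, Slc5a12, Slc22a6 and Slc22a8 were above the brightest background probe on no outer medulla array, and Slc4a11 and Slc14a2 on no cortex array. Their differences are not exact, and a gene low in 1 zone could pass the filter on low values through the other alone.

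The collecting duct water channels and the vasopressin and aldosterone receptors were higher in the outer medulla than in the cortex, and none of the sodium channel subunits passed as higher there. Over the 4 treatments, Aqp2, Aqp3, Aqp4, Avpr2 and Nr3c2 rose in the outer medulla and Scnn1b fell. Avpr2 passed the filter on low values only through the outer medulla, where it is high, so its call is not independent of that filter. The comparison of zones used limma over all 13163 tested probe sets, with the treatment as a block and Benjamini-Hochberg adjusted p under 0.05 as the threshold. Of all tested probe sets, 32.7% were called higher and 18.8% lower in the outer medulla, 51.5% in all, and the count of 5 and 1 of 10 is near that background. Zones are compared within treatments, so these p-values measure the spread of the zone difference over treatments and not between rats.

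Aqp2, the vasopressin-regulated apical channel, stood at 15.03 in the control cortex, 14.48 with EG, 15.44 with phlorizin and 15.23 with both. In the outer medulla it stood at 17.76, 17.26, 18.15 and 17.89 in the same order. The zones did not overlap, and the difference was nearly equal in the 4 treatments, from 2.66 to 2.78. The fitted rise was 2.72 on the log2 scale (SE 0.13, limma adjusted p = 2.68e-05). Aqp3, the basolateral channel that also carries glycerol, rose by 2.71 (SE 0.25, limma adjusted p = 0.000304), with treatment values from 2.15 for control to 3.57 for EG.

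Aqp4, the second basolateral channel, had the largest zone difference of the 10 genes. Its cortex values were 7.63, 9.06, 8.69 and 9.23 for control, EG, phlorizin and both, and those of the outer medulla 14.77, 12.85, 15.29 and 14.29. It rose by 5.64 (SE 0.53, limma adjusted p = 0.000297), but the treatments were unequal, with 7.14 in control, 6.60 with phlorizin, 3.78 with EG and 5.05 with both. The control difference and the fitted rise are not exact, since the control cortex value lay within the background probes. Avpr2, the vasopressin receptor of the collecting duct, was at 9.33, 8.45, 9.63 and 8.73 in the outer medulla and between 6.47 and 7.27 in the cortex. Its rise of 2.25 (SE 0.24, limma adjusted p = 0.00053) is not exact, since the cortex values lay among the background probes. Nr3c2, the mineralocorticoid receptor, rose by 1.79 (SE 0.14, limma adjusted p = 0.000177), from 1.51 with EG to 1.93 with phlorizin and with both. Its zones overlapped, because the outer medulla EG array (10.27) was below the control cortex array (10.45). All 4 outer medulla values were above all 4 cortex values for Aqp2, Aqp3, Aqp4 and Avpr2, a state found for 24.7% of tested probe sets. Avpr2 entered that comparison only through its outer medulla values, since no cortex value reached the filter (7.54).

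Scnn1b, the beta subunit of ENaC, fell in the outer medulla by 0.67 (SE 0.18, limma adjusted p = 0.0187), and it was lower there in 4 of 4 treatments. The call was lost without the treatment as a block (limma adjusted p = 0.0585). It was also lost without the control pair (-0.60, limma adjusted p = 0.0803), without the phlorizin pair (-0.60, 0.0850) and without the pair of EG with phlorizin (-0.65, 0.0777), and over 11 alternatives the adjusted p ran from 0.0024 to 0.085. Scnn1g, the gamma subunit, differed by 0.51 (SE 0.21, limma adjusted p = 0.0790) and passed only without the control pair (0.71, 0.0374; range over alternatives 0.0374 to 0.204). Scnn1a, the alpha subunit, differed by -0.36 (SE 0.21, limma adjusted p = 0.204). Aqp1 differed by 0.34 (SE 0.16, limma adjusted p = 0.115) and passed with quantile normalization alone (0.48, 0.0359; range 0.0359 to 0.475). Hsd11b2, the glucocorticoid-inactivating enzyme, differed by 0.03 (SE 0.23, limma adjusted p = 0.921), with -0.47 in control and 0.74 with EG, and without the EG pair it was -0.21.

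**Figure D1:**
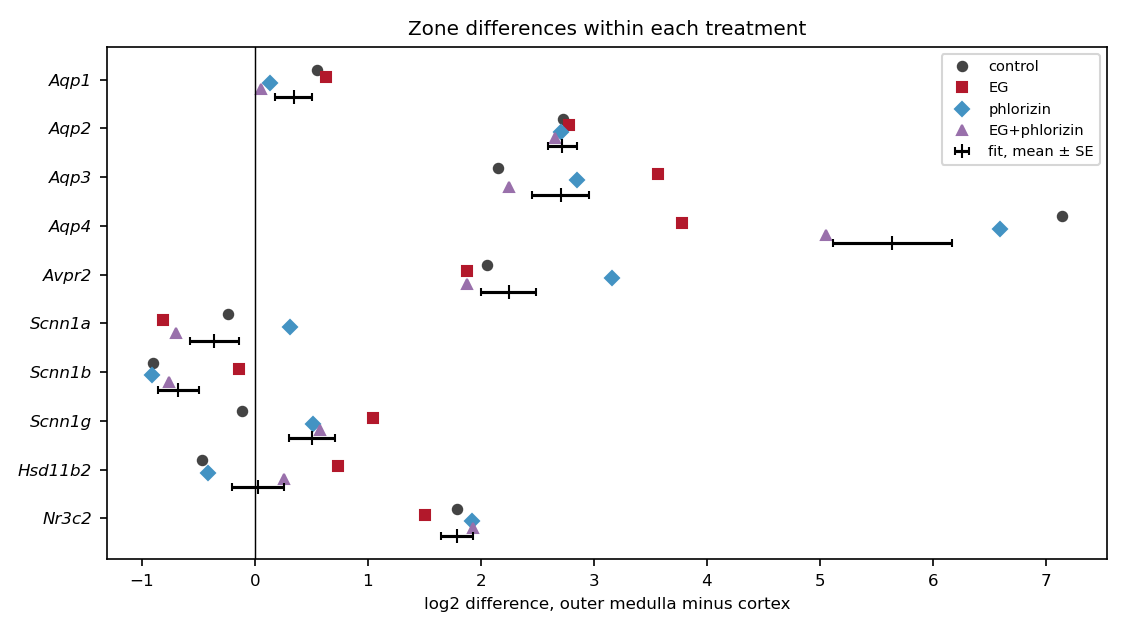
Zone differences of the 10 genes. The horizontal axis gives the log2 difference, outer medulla minus cortex, with 1 symbol per treatment and the fitted mean ± SE in black (4 pairs of arrays). Aqp2 is near 2.72 in every treatment, Aqp4 runs from 3.78 with EG to 7.14 in control, and the 3 sodium channel subunits lie between -0.91 and 1.05.

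Other genes of water and salt handling were set beside these, and not all of them belong to principal cells. Their counts are to be read against the 32.7% and 18.8% of all tested probe sets that were called higher and lower. Among collecting duct transcription factors 9 of 10 tested rose in the outer medulla and none fell (median 2.18, against 0.18 for all tested probe sets). The vasopressin and cAMP list had 11 of 19 that rose and 1 that fell, ENaC regulators 8 and 4 of 18, genes of aquaporin 2 trafficking 5 and 5 of 16, and potassium channel and pump partners 3 and 1 of 6. Some genes of these lists, among them Gata2, Elf5 and Ptger1, passed the filter on low values only through the outer medulla. Of the other aquaporins 3 of 8 were tested. Aqp6, a channel of intercalated cell vesicles, rose by 3.87 (SE 0.16), Aqp7, a glycerol channel of the proximal tubule, fell by 6.17, and Aqp11, an intracellular channel of the proximal tubule, fell by 4.75. Aqp11 was not above the brightest background probe on any outer medulla array and Aqp7 on 2 of 4, so these falls are not exact. The limma adjusted p-values of the 3 were 1.84e-05, 4.49e-05 and 0.000306.

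With EG, Aqp1, Aqp3, Scnn1a and Nr3c2 were at least 1 lower than in control in both zones, while Aqp2 differed by about 0.5 and Scnn1b and Hsd11b2 went opposite ways in the zones. Of the 10 genes, 5 lay at least 1 below control in the cortex and 1 above it, where 12.7% and 9.66% of all tested probe sets did. The outer medulla had 5 below and 0 above, against 9.69% and 8.58%. Both zones together had 4 below and 0 above, against 4.47% and 4.9%. The 10 genes had a cortex median of -1.11 and an outer medulla median of -1.06, and that of all tested probe sets -0.07 and -0.05. The lowest of a gene's 4 values was the EG array for 8 of 10 genes in each zone, compared with 38.7% (cortex) and 36.8% (outer medulla) of probe sets. In whole tissue, fewer cells of a type and less RNA per cell cannot be told apart. The cortex EG array is also the one with low spike-in controls, and the part of this in its values was not tested.

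**Figure D2:**
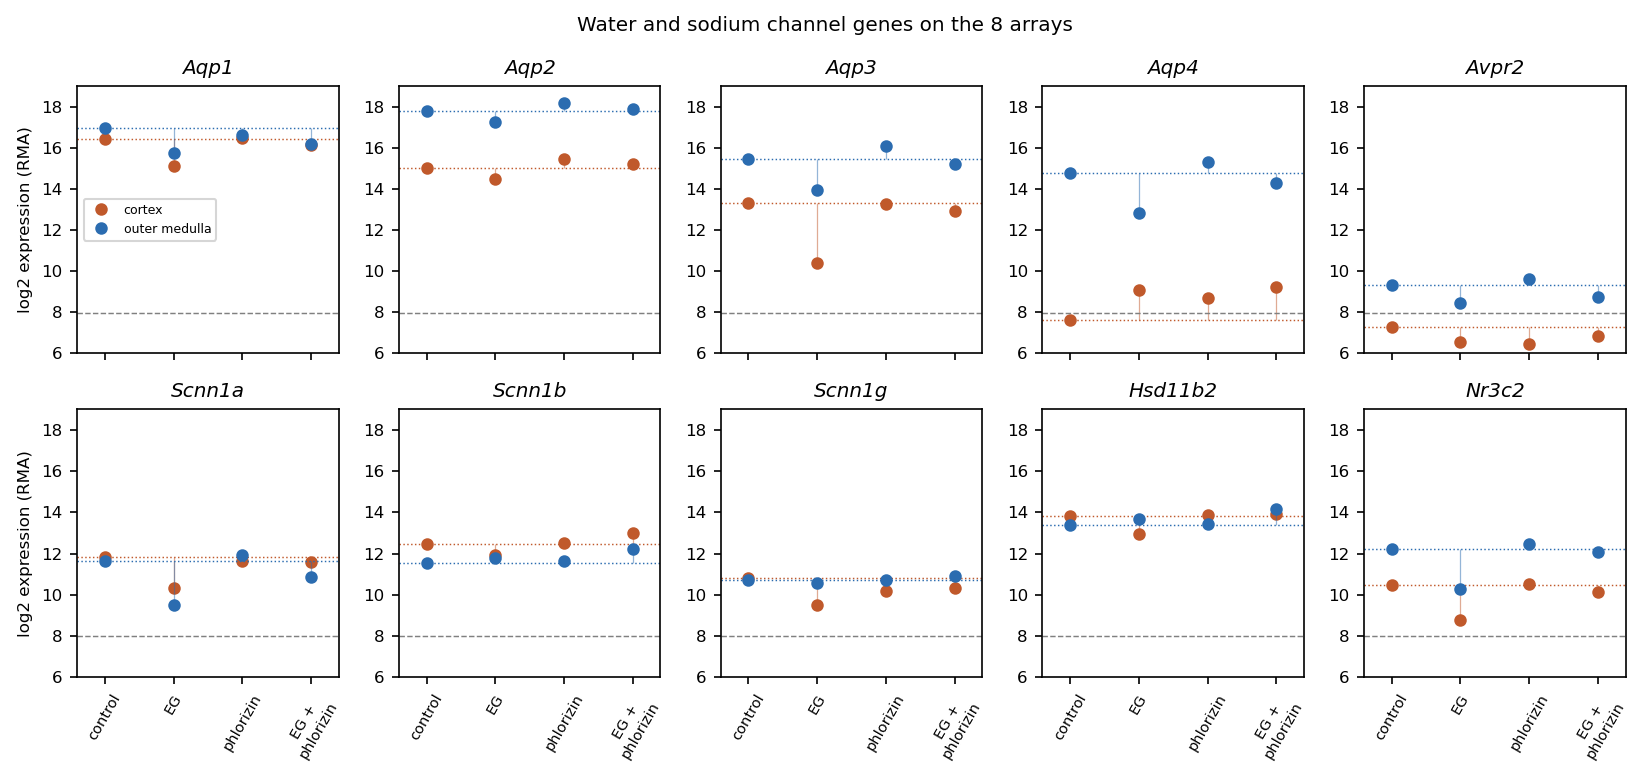
Log2 expression of the 10 genes on each array, by treatment, with 1 point per array (orange, cortex; blue, outer medulla). Dotted lines mark the control value of each zone, thin vertical lines the distance from it, and the dashed grey line the brightest background probe of any array (7.98). Aqp3, Scnn1a and Nr3c2 drop on both EG arrays and are nearer to control on the arrays of EG with phlorizin.

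Aqp3 had the largest EG difference of the 10 genes in the cortex, while in the outer medulla those of Scnn1a, Nr3c2 and Aqp4 were larger. In the cortex it went from 13.31 in control to 10.38 with EG, and stood at 13.24 with phlorizin and 12.95 with both. In the outer medulla the 4 values were 15.47, 13.95, 16.10 and 15.19. The EG difference was thus -2.94 and -1.52 without phlorizin and -0.29 and -0.90 with it. Aqp2 differed by -0.56 and -0.51 without phlorizin and by -0.20 and -0.26 with it. In each of these 4 comparisons the Aqp3 difference lay below that of Aqp2, with gaps of -2.38, -1.01, -0.09 and -0.64. Centring shifts all genes of an array alike, so it could not have changed these gaps. Whether Aqp2 was near the upper limit of the arrays was not tested.

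Aqp1 differed by -1.32 in the cortex (16.41 to 15.10) and by -1.24 (16.97 to 15.73) in the other zone. With phlorizin the EG difference was -0.32 and -0.41. Aqp1 is also the water channel of red cells and of the descending vasa recta. The 5 tested red cell markers had medians of -2.21 and -2.42 with EG, and of -0.22 and 0.44 under phlorizin. With EG 4 and 5 of them were at least 1 lower, against 12.7% and 9.69% of all tested probe sets. Markers of the early proximal tubule had medians of -0.70 (cortex) and 0.54 (outer medulla), and those of its last part (S3) -1.01 and 0.83. Those of the thin limb were 0.66 and 0.41, and those of endothelium and vasa recta -0.64 and -0.97. Their part in the Aqp1 values was not tested.

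Aqp4 went opposite ways in the zones. It was 1.43 higher with EG in the cortex, from a control value within the background probes, and differed by -1.93 in the outer medulla. Under phlorizin the EG differences were 0.54 and -1.0. The outer medulla difference minus that of the cortex was -2.45 (SE 0.49), which did not pass in the limma test of EG by zone (adjusted p = 0.240, range over 6 alternatives 0.115 to 0.284). Of the 10 genes, 1 had an EG difference higher in the outer medulla at an unadjusted p under 0.05 (Hsd11b2, 0.94) and 2 a lower one (Aqp4 and Scnn1a, -0.79), against 6.47% and 5.9% of probe sets. No probe set passed that test (0%), while 1627 had an unadjusted p under 0.05. With the variance prior fitted as a trend, 74 probe sets passed as higher and 38 as lower, with 0 of the 10 genes among them. Avpr2 differed by -0.88 in the outer medulla without phlorizin and by -0.90 with it, the only one of the genes that were at least 0.5 lower with EG there whose difference was as large under phlorizin.

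The 3 subunits of ENaC went unequally. Scnn1a, the alpha subunit, went from 11.85 to 10.31 with EG in the cortex (-1.54), while the outer medulla arrays read 11.62 and 9.5 (-2.12). Scnn1b differed by -0.52 and 0.24, and Scnn1g by -1.31 and -0.14. In the cortex the alpha and gamma subunits were therefore both at least 1 lower, by similar amounts, whereas in the outer medulla the alpha subunit alone was at least 1 lower. Under phlorizin the EG differences were -0.05 and -1.06 for Scnn1a, 0.46 and 0.61 for Scnn1b, and 0.15 and 0.21 for Scnn1g. The Scnn1a difference lay below that of Scnn1b in all 4 comparisons, with gaps of -1.02, -2.36, -0.51 and -1.67. These pairs of genes were chosen after their values were seen, and the contrast has no test.

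The aldosterone receptor and its guarding enzyme were unequal as well. Nr3c2 went from 10.45 to 8.76 in the cortex (-1.69), while the outer medulla arrays read 12.24 and 10.27 (-1.97), and under phlorizin it differed by -0.41 in each zone. Hsd11b2 was at 13.85 and 12.94 in the cortex without and with EG (-0.91), and at 13.38 and 13.68 in the outer medulla (0.30). Under phlorizin it differed by 0.05 and 0.72. Its highest value in each zone was on the array of EG with phlorizin (13.91 and 14.17), and so was that of Scnn1b (12.99 and 12.24).

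**Figure D3:**
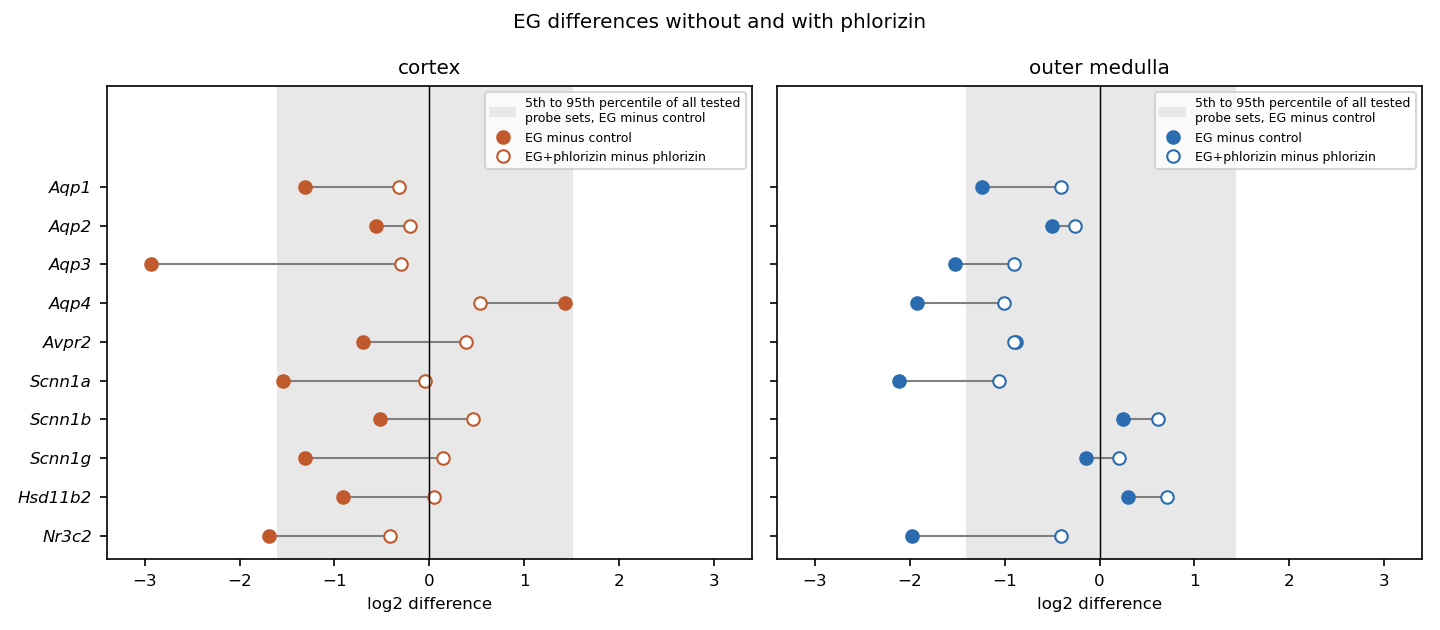
EG differences of the 10 genes on the log2 scale in the cortex (left) and outer medulla (right). Filled points are EG minus control, open points EG with phlorizin minus phlorizin, with 1 array on each side, and the grey band spans the 5th to 95th percentile of all tested probe sets for EG minus control (-1.59 to 1.51 and -1.40 to 1.43). Aqp3 and Nr3c2 lie below the band in both zones, and the open points of most genes lie nearer to 0.

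The test of EG against no EG was made on 4 profiles, each the mean of both zones of a treatment, with EG and phlorizin as terms in limma. It called 0 of the 10 genes, where 0.038% of probe sets were called higher and 0% lower. At an unadjusted p under 0.05, 4 of the 10 were lower and 0 higher, against 12.9% and 9.85% of probe sets. These were Aqp3 (-1.41, SE 0.39, limma adjusted p = 0.121), Scnn1a (-1.19, SE 0.33, 0.122), Nr3c2 (-1.12, SE 0.36, 0.146) and Aqp1 (-0.82, SE 0.28, 0.164). Each of them was lower in 4 of 4 comparisons of EG with no EG, and so was Aqp2, which is not among them. These genes were taken for a low fitted EG difference, so their equal signs are no added support. The share of all tested probe sets that were lower in 4 of 4 was not computed. The fit counts an EG difference that is unequal between the phlorizin arms as error. When each array counted as a sample, with a random block for treatment, these 4 genes passed (limma adjusted p = 0.0414 for Scnn1a to 0.0492 for Aqp1, against up to 0.394 under other settings). The estimated correlation of zones was then -0.10, so that setting treats both zones of a treatment as separate samples. The split of calls over all probe sets also moved with scaling, from 5 higher and 0 lower to 485 and 387 with each array centred on its median.

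Under phlorizin the EG differences of the 10 genes lay between -0.41 and 0.54 for the cortex, and reached -1.06 for the outer medulla. No cortex difference reached 1 in size (0 of 10), where 1.55% of probe sets were at least 1 lower and 2.43% higher. The outer medulla had 2 that were at least 1 lower, Scnn1a (-1.06) and Aqp4 (-1.0), against 3.01%, and 0 higher, against 3.65%. These and Aqp3 and Avpr2 (-0.90 each) lay below the 5th percentile of all tested probe sets there (-0.84). Both zones together had 0, against 0.319% lower and 0.995% higher. The medians were -0.00 and -0.41, and those of all tested probe sets -0.05 and -0.02. EG with phlorizin shares its array with the comparison that follows, so the numbers are set side by side and not counted as separate evidence.

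Among EG arrays, those with phlorizin had higher values for all 10 genes in both zones. The share of all tested probe sets that were higher in both zones was not computed. In the cortex 5 gained at least 1, where 7.35% of probe sets were, namely Aqp3 (2.57), Nr3c2 (1.36), Scnn1a (1.27), Scnn1b (1.07) and Aqp1 (1.06). The outer medulla had 4, where 3.35% of probe sets were, namely Nr3c2 (1.78), Aqp4 (1.44), Scnn1a (1.38) and Aqp3 (1.25). Aqp2 was 0.76 and 0.63 higher. The medians of the 10 were 1.02 and 0.56, and those of all tested probe sets -0.04 and 0.02. In both zones 3 were at least 1 higher (Aqp3, Scnn1a and Nr3c2), against 1.15%. The count at least 1 lower was 0 in the cortex, the outer medulla and both, against 6.18%, 4.34% and 1.71%. This comparison uses the same EG arrays as EG against control, so a low value there gives a high one here.

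Phlorizin without EG differed little from control. Aqp2 was 0.40 and 0.39 higher, and Aqp3 differed by -0.07 and 0.63. A single gene of the 10, Aqp4 in the cortex (1.06), was at least 1 higher, from a control value within the background probes, where 0.653% of probe sets were. The outer medulla had 0, against 0.577%. The count at least 1 lower was 0 in each zone, against 0.501% and 0.205%. In both zones 0 were at least 1 apart, against 0.0304% higher and 0.0152% lower. Scnn1g differed by -0.62 and 0.01, and Avpr2, within the background probes in the cortex, by -0.81 and 0.30. In the limma fit over both EG arms, all 10 phlorizin differences were above 0 (median 0.48). The median of all tested probe sets was -0.02, and their share above 0 was not computed. Of the 10 genes 0 passed (lowest limma adjusted p = 0.995), as for all probe sets (0%). At an unadjusted limma p under 0.05, 3 were higher, Aqp4 (0.80, SE 0.21), Aqp3 (1.10, SE 0.39) and Aqp2 (0.55, SE 0.22), against 1.53% of probe sets, and 0 lower, against 2.02%.

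Other genes of water and salt handling were taken from lists, and 0 of the 72 tested genes of these 6 lists passed in the limma fit of EG (7 higher and 14 lower at an unadjusted p under 0.05, where 9.85% and 12.9% of all probe sets were). Potassium channel and pump partners had medians of -0.999 and -1.60 with EG. At least 1 below control lay 3 of 6 (cortex) and 5 of 6 (outer medulla), against 12.7% and 9.69% of all tested probe sets. The partners that did in both zones were Kcnj10, Kcnj1 and Kcnj16, where 4.47% of all tested probe sets did. Kcnj10, a basolateral potassium channel of the distal nephron, was at 10.04 in the control cortex and 5.98 with EG, and at 10.96 and 5.76 in the outer medulla. Its EG values lay within the background probes, so the differences are not exact. Kcnj1, the secretory potassium channel ROMK, differed by -1.52 and -1.31, and Kcnj16 by -1.01 and -1.88. Among the other aquaporins, Aqp6 differed by -2.65 and -2.02, Aqp11 by -1.77 and -0.15, and Aqp7 by -0.34 and 1.24. Aqp6, which follows Aqp2 and Aqp5 on the chromosome, thus differed more than Aqp2. Aqp5 was not tested, with values up to 5.48.

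Of ENaC regulators and aldosterone-responsive genes, 4 of 18 were at least 1 lower in both zones and 0 higher, where 4.47% and 4.9% of all tested probe sets were (medians -0.68 and -0.63). They were Usp2, a deubiquitinase that acts on ENaC (-2.47 and -3.15), and Zbtb16 (-1.27 and -3.59), Fkbp5 (-1.46 and -2.44) and Klf9 (-1.52 and -1.31), which also respond to glucocorticoids. Zbtb16 was not above the brightest background probe on either EG array, so its differences are not exact. Under phlorizin, Fkbp5 still differed by -1.16 and -2.04 with EG, whereas Usp2 differed by -0.29 and -1.18. Sgk1, the kinase that aldosterone induces, is on the same list and differed by -0.64 and -0.35. The vasopressin and cAMP list had medians of 0.09 and -0.29. Prkar2b, a regulatory subunit of protein kinase A, was 2.05 and 1.44 higher. It was alone among 19 at least 1 higher in both zones, with 0 lower, against 4.9% and 4.47% of all tested probe sets. Its cortex control value lay within the background probes, so 2.05 is not exact. Genes of aquaporin 2 trafficking had medians of -0.03 and -0.18. Anxa2 (3.32 and 1.08) and Myh9 (2.24 and 1.43), both cytoskeletal or membrane-binding proteins of many cell types, lay at least 1 above control in each zone and Sipa1l1 (-1.11 and -1.13) below it. Of collecting duct transcription factors 0 of 10 were at least 1 apart in the same direction in both zones, with Sox4 (2.24 and 0.96), Elf3 (1.77 and 0.66), Foxi1 (-1.55 and -0.88) and Elf5 (-0.35 and -2.05) named for their mean difference. Sox4 and Elf3 lay within the background probes in the control cortex, and Elf5 on all 4 cortex arrays and the outer medulla EG array, so these differences are not exact.

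Markers of neighbouring cell types moved with EG too. The median of intercalated cell markers was -2.67 in the cortex and -2.12 for the outer medulla, and 10 of 14 lay at least 1 below control in both. That of the thick ascending limb was -2.43 and -1.40, and 6 of 8 did, against 4.47% of all tested probe sets. Both medians lay below those of the 10 genes in both zones, a difference that was not tested. The mean log2 level of 9 macrophage markers was 11.48 and 12.03 on the EG arrays, against 8.81 and 9.95 in control, 8.79 and 9.79 with phlorizin, and 9.68 and 11.02 with both. With EG 9 of 9 lay at least 1 above control in the cortex and 8 did in the outer medulla, against 9.66% and 8.58% of all tested probe sets. The mean of 4 fibroblast markers was 15.10 and 16.26 with EG, against 12.16 and 13.30 in control, and 4 of 4 lay at least 1 above control in both zones, against 4.9%. Of the distal convoluted and connecting tubule list, whose medians were -1.36 and 0.76, the apical calcium channel Trpv5 rose with EG by 4.74 (SE 0.32, limma adjusted p = 0.0295). The call was lost with quantile normalization (limma adjusted p = 0.188) and in the cortex alone (0.113), and over 10 alternatives the adjusted p ran from 0.000485 to 0.188. Trpv5 was 2.41 higher in the EG cortex and 8.28 in the outer medulla. The latter and the fitted rise are not exact, since the outer medulla value was not above the brightest background probe in control (5.48) or with phlorizin. The part of these cells in the values of the water and sodium channel genes was not tested. Urothelial markers were below the filter but for Upk1b, which passed the filter with EG in the outer medulla (7.76) but was above the brightest background probe on none of the 8 arrays.

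**Figure D4:**
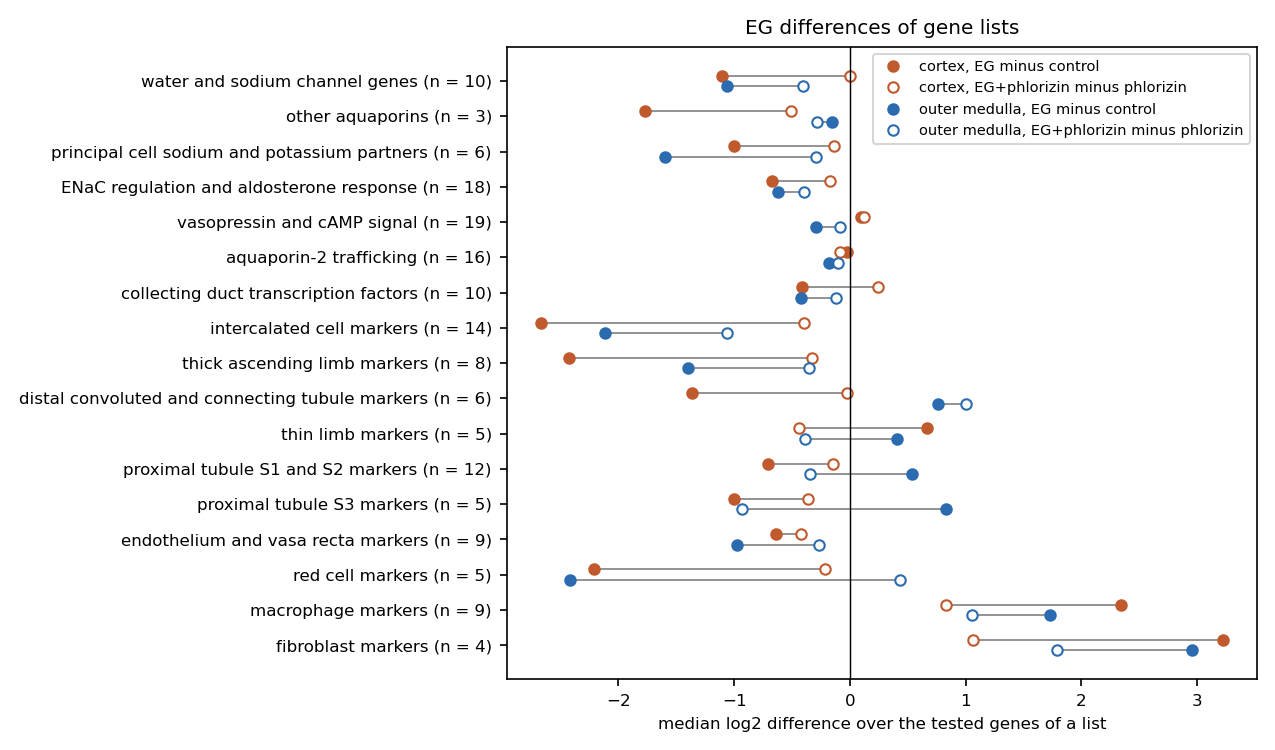
Median log2 difference over the tested genes of each list, with the number of genes in brackets, for EG minus control (filled) and EG with phlorizin minus phlorizin (open) in the cortex (orange) and outer medulla (blue). The 10 water and sodium channel genes have medians of -1.11 and -1.06 without phlorizin and -0.00 and -0.41 with it, while the vasopressin list lies at 0.09 and -0.29 and the trafficking list at -0.03 and -0.18 without phlorizin.

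The patterns of the 10 genes over the arrays were compared once each zone was centred on its own mean, and the pairs given were chosen after their values were seen. Over the 8 arrays, Scnn1a and Nr3c2 had Pearson r = 0.964, Aqp3 and Nr3c2 0.932, and Aqp1 and Aqp3 0.925. Scnn1b and Hsd11b2 had r = 0.913 with each other, but Scnn1b had 0.159 with Scnn1a. Aqp4 and Hsd11b2 stood at -0.309. These values are descriptions, since all genes share the 8 arrays. Among 9315 tested genes with a name, the nearest to Aqp1 were Ndufb2 (0.999) and Uqcrh (0.996), both subunits of the respiratory chain, and the nearest to Scnn1a were Kcnj10 (0.994) and Pank1 (0.993). For Aqp2 they were Farp2 (0.987) and Gmps (0.983), for Aqp3 Timm21 (0.992) and Qrsl1 (0.992), for Aqp4 Tom1l1 (0.981) and Corin (0.969), and for Avpr2 Pknox1 (0.989) and Pde8b (0.979). For Nr3c2 they were Clcn3 (0.994) and Plpp6 (0.994), for Scnn1g Fkbp4 (0.993) and Prmt3 (0.980), for Hsd11b2 Trpm7 (0.992) and Ebag9 (0.979), and for Scnn1b Rbck1 (0.954) and Galt (0.948). Every one of the 10 genes thus had a gene with r of at least 0.954 among these 9315. Kcnj10 lay within the background probes on both EG arrays, so its r with Scnn1a is not exact.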

How the data were processed

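Total RNA of 8 samples was hybridised to Clariom S rat arrays. The values deposited by the authors are log2 expression from RMA, as the submitters' processing notes state. That the base is 2 was inferred from their range (2.40 to 19.7). Software versions behind RMA are not given in the sources used here. Of 24834 probe sets, 1646 for controls and the like were not used. Gene names came from the platform annotation, which names 15049 of 23188. Where a symbol had several probe sets (10 symbols), the highest mean decided. Probe sets whose highest value reached the median of all values (7.54) were tested, 13163 in all. A gene high in a single zone could thus pass the filter through that zone alone. Values were used as deposited. limma 3.58.1 in R 4.3.3 gave moderated, 2-sided, Benjamini-Hochberg adjusted p-values, with a threshold of 0.05. EG, phlorizin and EG by zone were fitted on 4 profiles or 4 zone differences, with 1 residual degree of freedom before moderation. The labels do not state separate animals, so p-values measure the spread between these samples, and the number of arrays limits the precision. The fits were also tested on simulated data, with noise drawn from the variance prior fitted to these data. Of simulated log2 differences of size 1, the EG fit recovered 4.48% and the zone fit 38.8%. At size 2 the shares were 94.0% and 95.5%. The recovery figures apply to genes whose error is like the simulated noise. An EG difference that is unequal without and with phlorizin adds to the error of the EG fit. In that fit Egf, a thick ascending limb marker, differed by -2.13 (SE 0.67, limma adjusted p = 0.142). Slc4a1, an intercalated cell marker, differed by -2.49 (SE 0.61, limma adjusted p = 0.101), and neither was called. A lack of EG calls thus does not show a lack of differences near size 1, nor of larger ones in such genes. The genes and lists were chosen with earlier results of these data known. Named are the 10 genes, up to 4 members per list with the largest mean EG difference, and the 2 nearest genes by pattern. Sgk1 and Aqp5 were named outside that rule, after their values were seen. Alternatives covered normalization, filter, variance prior, probe set, unit of the fit, size threshold and leaving out each treatment. Tables and plots were made in Python 3.11.15 (pandas 2.3.3, numpy 2.4.6, matplotlib 3.10.9).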

Additional observations from a re-analysis of the deposited data

Results flagged for a closer look

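Aqp4, the basolateral water channel, is given here because its EG difference went opposite ways in the zones in both phlorizin arms. It was 1.43 and 0.54 in the cortex and -1.93 and -1.0 in the outer medulla, without and with phlorizin. The outer medulla difference minus that of the cortex was -2.45. In the limma test of EG by zone this gave an unadjusted p of 0.00399 and an adjusted p of 0.240, so the difference did not pass. The cortex control value (7.63) lay below the brightest background probe (7.84), whereas the outer medulla values were 12.85 to 15.29.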

How the results depend on the processing

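Over the 4 treatments, the count of 5 genes that rose in the outer medulla ranged from 5 to 6 when a treatment was left out, and the 1 that fell, Scnn1b, from 0 to 1. Without the treatment as a block none fell, so this replicate block changed that call (0). No paired analysis by replicate number was possible because the labels carry no replicate numbers. In the EG fit 4 genes fell with the treatment as a random block (estimated correlation -0.10), against 0 in the other settings. Over all probe sets the EG fit called 0 with quantile normalization, 485 higher and 387 lower with centred arrays, 400 and 231 with no filter, 3 and 0 with a fitted variance trend, 589 and 514 with 8 arrays as samples, 830 and 862 with the random block, 6 and 1 in the cortex alone and 237 and 118 in the outer medulla alone. EG by zone called 8 higher and 1 lower with quantile normalization, 4 and 0 with no filter, 2 and 0 with the filter on the mean, and 74 and 38 with the variance trend. At a size threshold of 0.5, EG minus control in the cortex gave 10 genes, EG under phlorizin 1 for the cortex and 6 for the outer medulla, phlorizin minus control 3 and 2, and phlorizin among EG arrays 8 in the cortex. At a threshold of 2 these were 1 for EG minus control in each zone, 0 for EG under phlorizin in the outer medulla, 0 for phlorizin in the cortex, and 1 and 0 for phlorizin among EG arrays. Quantile normalization gave 1 for EG under phlorizin in the outer medulla and 3 for phlorizin among EG arrays in the cortex. The shares of all tested probe sets were not computed for these counts by size. They are therefore not read as particular to the 10 genes. Some signs turned. For zones, Hsd11b2 was -0.055 with centred arrays, and -0.21 without the EG pair to 0.20 without the control pair, with -0.045 without the pair of both. For EG, Hsd11b2 was -0.0077 with centred arrays and -0.43 in the cortex alone, Aqp4 0.98 (against -1.46 in the outer medulla alone) and Scnn1b -0.030 in the cortex alone, and Scnn1g 0.031 in the outer medulla alone. For phlorizin, Avpr2 was -0.26 in the cortex alone. No other sign turned under the alternatives run. Signal over background limits Avpr2 and Aqp4 in the cortex.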
